A study of Sparassis latifolia with 12 samples.

Results

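Pyruvate kinase (PK, EVM0009831) and glycerol-3-phosphate dehydrogenase (GPDH, EVM0008918) are 2 of the 13103 mRNAs listed for Sparassis latifolia, an edible mushroom, and were taken from that list by their identifiers. The study compared fresh fruiting bodies with stored ones and named both genes among those induced in storage, so the comparisons with day 0 below are not independent evidence of their direction. Fruiting bodies of the strain Minxiu No.1 in oriented polypropylene (OPP) film were stored at 4 ℃. Group A is the fresh tissue of day 0, and groups B, C and D are days 8, 16 and 24, with 3 libraries in each group and 12 in all. The groups share strain and tissue, and the labels set them apart by storage time. Groups B, C and D spent that time at 4 ℃ in the film, and day 0 spent none. In comparisons with day 0, cold, film and time since harvest therefore cannot be told apart. Nothing states that the 3 replicates of a day came from separate packages, so the p-values measure the spread between these libraries, which may be technical.

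PK closes glycolysis: its reaction passes the phosphate of phosphoenolpyruvate on to ADP, so the cell gains ATP and is left with pyruvate. GPDH acts on a side branch higher up the pathway. It interconverts dihydroxyacetone phosphate and glycerol-3-phosphate, and fungi draw on this branch for glycerol, for membrane lipids and for balancing NAD and NADH. Some enzymes of this name are cytosolic and use NADH while others sit in mitochondria and use FAD, and the name given to EVM0008918 does not say which of these it is.

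The values are FPKM, in which the number of read fragments is set against transcript length and mapped reads, so that levels of different genes can be compared per length. Each library was brought to a common scale with a factor of 0.983 to 1.02, giving scaled FPKM. The read depth behind a single value is unknown. Fresh libraries had 12636 to 12886 mRNAs above 0, those of days 8 and 16 had 10956 to 11061, and on day 24 replicates 1 and 2 had 11480 and 11133. Replicate 3 of day 24 had 12789 and so lay in the range of fresh tissue. Replicate 3 of day 8 correlated across mRNAs at r = 0.917 and 0.927 with the other libraries of its day and at 0.946 to 0.955 with those of day 16, and replicate 2 of day 0 correlated with the libraries of days 8 and 16 at 0.795 to 0.828, above the 0.759 to 0.785 of replicates 1 and 3. Genes are not independent replicates, so these r values are a description. By the sequencing summary of the study, base quality was higher in groups B and C than in A and D. Clean reads were more in group B and in replicates 1 and 2 of group C than in A and D. The share of uniquely mapped reads was lower in groups B and D than in A and C. Base quality and mapping split whole groups, so their part in differences between those groups cannot be told apart from storage time. None of these was tested.

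PK stood at 2.90 to 3.74 times its fresh level on the stored days, by the ratio of the means, with the lowest ratio on day 8 and the highest on day 24. That order of the stored days changed when the libraries were scaled in other ways. The scaled FPKM of PK on day 0 was 841, 1385 and 880.4 in replicates 1, 2 and 3. Replicates 1, 2 and 3 of group B had 3147, 2931 and 2939, those of group C had 4779, 2498 and 3908, and those of group D had 4427, 2772.5 and 4435. All 9 stored libraries lay above all 3 fresh ones, and the lowest stored value was 1.80 times the highest fresh value. The means of days 0, 8, 16 and 24 were 1036 ± 304, 3006 ± 122, 3728 ± 1151 and 3878 ± 958 (SD, n = 3 each). The libraries of day 8 were the tightest, with an SD of 4.07% of the mean against 24.7% to 30.9% on the other days. In bulk tissue, more RNA per cell and more of the cells that hold this RNA cannot be told apart.

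GPDH was low in fresh tissue and stood at 4.98 to 7.85 times that level in storage. Its scaled FPKM on day 0 was 4.63, 9.86 and 6.49 in replicates 1, 2 and 3. Replicates 1, 2 and 3 of group B had 32.3, 28.7 and 85.3, those of group C had 66.4, 43.0 and 55.3, and those of group D had 39.6, 33.1 and 31.8. Here too the 9 stored libraries lay above the 3 fresh ones, with the lowest stored value 2.91 times the highest fresh value. The means were 6.99 ± 2.65, 48.8 ± 31.7, 54.9 ± 11.7 and 34.8 ± 4.19 on days 0, 8, 16 and 24 (SD, n = 3 each), which is 6.97, 7.85 and 4.98 times day 0 on the 3 stored days. The mean of day 8 was raised by replicate 3, and without it the mean was 30.5 (n = 2), close to that of day 24. In PK this library was in the middle of its day.

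**Figure D1:**
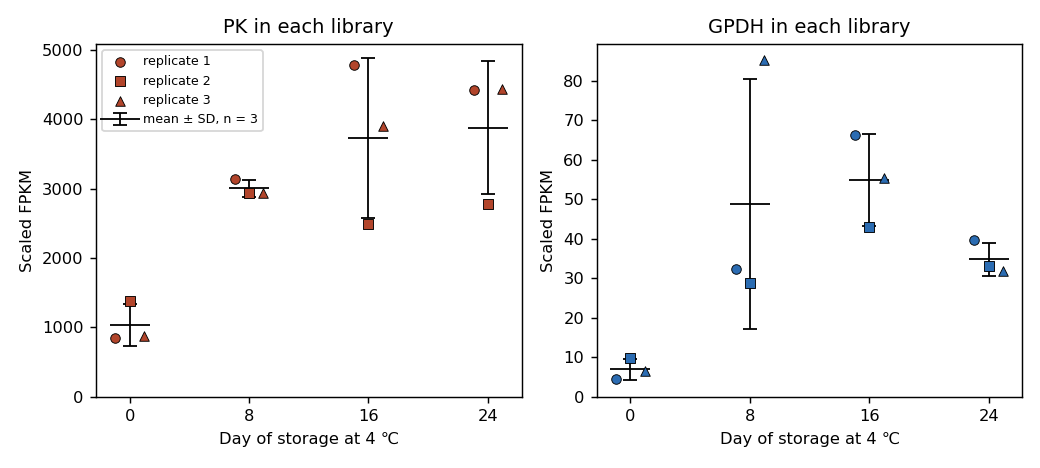
Scaled FPKM of PK (left) and GPDH (right) in each of the 12 libraries against day of storage, on linear axes that start at 0; points are replicates and bars are mean ± SD (n = 3). The stored libraries of PK lie at 2498 to 4779 and those of GPDH at 28.7 to 85.3, all above the fresh ones, and day 8 replicate 3 stands out for GPDH alone.

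Both mRNAs rose on all 3 stored days against day 0. The tests used limma on log2(scaled FPKM + 1) over 10962 mRNAs that reached an FPKM of 1 in 3 or more libraries, in one fit of the 12 libraries. Calls required an adjusted p below 0.05 together with a log2 fold change of 1 or more, up or down. The log2 fold changes of PK on days 8, 16 and 24 were 1.57, 1.83 and 1.91, each ± 0.454 (SE), with adjusted p from limma of 0.0144, 0.00642 and 0.0133. Those of GPDH were 2.51, 2.84 and 2.21, each ± 0.374 (SE), with adjusted p from limma of 0.000286, 0.000125 and 0.0026. Of all mRNAs tested, 13.6%, 14.6% and 6.66% were called higher on days 8, 16 and 24 (30.5%, 31.3% and 13.5% were called in either direction), and the 3 comparisons share the same fresh libraries. Ordered by log2 fold change from the top, PK was number 602, 470 and 235 of 10962 on days 8, 16 and 24, and GPDH number 124, 108 and 175. The median over all mRNAs tested was -0.02 on each of the 3 days. The pseudocount of 1 lowers the estimate of GPDH more than that of PK, since fresh GPDH is low.

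The calls of PK were nearer to the threshold than those of GPDH. The call of PK on day 24 was lost without day 24 replicate 1 (log2 fold change 1.80, limma adjusted p = 0.055) and without day 24 replicate 3 (1.80, adjusted p = 0.063). That on day 8 was lost when only the libraries of days 0 and 8 were fitted (limma adjusted p = 0.0687). PK's own SD within days was 0.369 on the log2 scale, and limma, which draws each gene towards the spread of genes of similar level, used 0.556. Without that trend, an alternative added after the data were seen, its standard error was 0.285 and its limma adjusted p 0.00108, 0.000396 and 0.00153. GPDH's own SD of 0.515 and limma's 0.458 were closer. Without day 0 replicate 2, the fresh library nearest to storage, the log2 fold changes of PK were 1.80, 2.06 and 2.14 and those of GPDH 2.76, 3.08 and 2.46. Without day 8 replicate 3 that of GPDH on day 8 was 2.03 (limma adjusted p = 0.00023), and without day 24 replicate 3 that on day 24 was 2.27 (limma adjusted p = 0.00777).

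For each gene the step from day 0 to day 8 was the one that passed the test, and no later step did. In the order of its means, PK ran from day 0 through days 8 and 16 to day 24. Day 16 differed from day 8 by a log2 fold change of 0.26 (95% interval -0.74 to 1.26) and day 24 from day 16 by 0.07 (-0.92 to 1.07), with limma adjusted p of 1 and 0.919. The order of the stored days for PK changed with the scaling. With quantile normalization its log2 fold changes against day 0 were 1.91, 1.84 and 1.5 on days 8, 16 and 24. With division by summed FPKM they were 1.63, 1.81 and 1.73. In the order of its means, GPDH ran from day 0 through days 24 and 8 to day 16. Day 16 differed from day 8 by 0.32 (-0.50 to 1.14), day 24 from day 8 by -0.30 (-1.12 to 0.52) and day 24 from day 16 by -0.63 (-1.45 to 0.19), with limma adjusted p of 1, 0.547 and 0.226. Since these intervals reach beyond a log2 fold change of 1, the stored days are not shown to be equal. Between days 16 and 8 limma called 0 of all mRNAs (537 at an unadjusted p under 0.05), against 23.6% for day 24 against day 8 and 18.6% for day 24 against day 16.

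A straight line over storage time had a positive slope in both genes. Days 0 and 24 weigh most in it, so it is not separate from their comparison and does not show a steady rise. The mean of GPDH was lower on day 24 (34.8 scaled FPKM) than on day 16, a difference that was not called. The linear part of the change over 24 days was 1.80 ± 0.431 (SE) on the log2 scale for PK and 2.09 ± 0.355 for GPDH, and limma gave adjusted p of 0.0135 and 0.00257. Of all mRNAs tested, 6.46% were called higher by this measure, and PK was number 249 and GPDH number 183 from the top. For PK the line missed the threshold without day 24 replicate 1 or 3 (limma adjusted p 0.0509 and 0.059). By the log2 fold change most of the rise was in place at day 8 in both genes, with 1.57 of the 1.91 that PK showed at day 24 and 2.51 of the 2.84 that GPDH showed at its highest. For GPDH the value on day 8 was 2.03 without replicate 3, and its mean of 30.5 scaled FPKM then stood between the fresh 6.99 and the 54.9 of day 16.

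By rank among all mRNAs, PK entered the most abundant few and GPDH moved from the lower part of the list to the upper part. Ranked by FPKM among the 13103 mRNAs, PK was number 122, 49 and 60 in fresh replicates 1, 2 and 3. It was number 9, 10 and 22 on day 8, 9, 21 and 12 on day 16, and 16, 22 and 15 on day 24. PK thus was among the top 0.931% of mRNAs in every library and among the top 0.168% in every stored one. It held 0.101% to 0.169% of the summed FPKM of all mRNAs on day 0 and 0.314% to 0.601% in storage, with summed FPKM of 666845 to 931532 per library.

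GPDH was number 9055, 7634 and 8737 in the fresh replicates, below the median mRNA in each (0.289, 0.632 and 0.403 times its FPKM). It was number 4420, 4777 and 1855 on day 8, number 2216, 3493 and 2852 on day 16, and number 3867, 4354 and 4452 on day 24. In storage it stood at 1.82 to 5.29 times the median mRNA, so it crossed the median in all 9 stored libraries. By the mean FPKM of a day, its rank was 8593, 3227, 2810 and 4247 on days 0, 8, 16 and 24, and 4632 on day 8 without replicate 3. PK had 64, 12, 12 and 15 by the same measure. Rank depends on what all other mRNAs do, and no test was run on it.

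**Figure D2:**
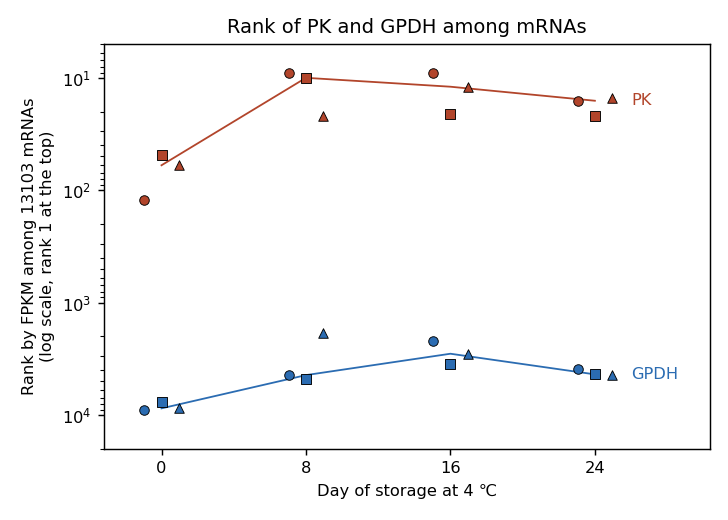
Rank of PK and GPDH by FPKM among 13103 mRNAs in each library against day of storage, on a log axis with rank 1 at the top; points are replicates (circle 1, square 2, triangle 3) and lines join the medians of the days. PK moves from ranks 49 to 122 into ranks 9 to 22, and GPDH from ranks 7634 to 9055 into ranks 1855 to 4777.

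The ratio of PK to GPDH, the end of glycolysis against its glycerol branch, was highest in fresh tissue, lower on days 8 and 16, and between these on day 24. PK had 181, 140 and 136 times the FPKM of GPDH in fresh replicates 1, 2 and 3. On day 8 the ratio was 97.5, 102 and 34.5, on day 16 it was 72.0, 58.0 and 70.6, and on day 24 it was 112, 83.9 and 139. The values of days 8 and 16 lay below all fresh ones, and those of day 16 below all of day 24, while day 24 overlapped with day 0. As log2 ratios the means were 7.24 ± 0.23, 6.13 ± 0.89, 6.06 ± 0.17 and 6.77 ± 0.37 on days 0, 8, 16 and 24 (SD, n = 3 each).

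The differences of the log2 ratio among the 4 days did not pass the test over all 12 libraries (exact permutation test of the F ratio, p = 0.0619 over 369600 assignments). This depended on the libraries of day 8. The exact p was 0.0451 without day 8 replicate 1, 0.0347 without replicate 2 and 0.00338 without replicate 3, while it was 0.0699 to 0.15 without any one library of another day. Without day 8 replicate 3 the geometric mean ratio of day 8 was 99.7 instead of 70.0. Against day 0 the log2 ratio differed by -1.11 on day 8 (-0.60 without replicate 3), -1.18 on day 16 and -0.47 on day 24. With 3 against 3 libraries the two-sided exact permutation test cannot go below 0.1, which was reached for days 8 and 16 against day 0 and for day 24 against day 16, and it gave 0.2 for day 24 against day 0. A larger factor for GPDH than for PK is therefore not shown by this test. A scale factor per library cancels in the ratio.

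**Figure D3:**
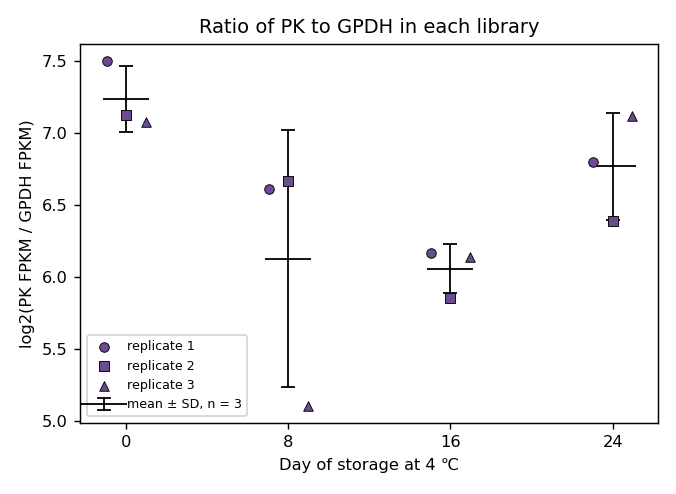
Log2 of the FPKM of PK over that of GPDH in each library against day of storage; points are replicates and bars are mean ± SD (n = 3), and the axis does not start at 0. Day 0 lies at 7.08 to 7.50, day 16 at 5.86 to 6.17 and day 24 at 6.39 to 7.12, and day 8 replicate 3 lies lowest at 5.11.

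The spread within days had some order in the fresh tissue. On day 0 the order of the 3 libraries was the same in both genes, with replicate 1 lowest and replicate 2 highest, and the highest was 1.65 times the lowest for PK and 2.13 times for GPDH. Replicate 2 was also the highest fresh library for the other 3 energy metabolism genes that the study names, against 37.9% of all mRNAs tested. The study named these genes as raised in storage, and replicate 2 was the fresh library nearest to storage. The shared order is therefore not independent of that choice. On day 16 both were highest in replicate 1 and lowest in replicate 2, while on days 8 and 24 the orders of the 2 genes differed. The highest library of day 8 was 1.07 times the lowest for PK and 2.97 times for GPDH. These are 3 libraries per day, so the orders are a description.

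The other genes of energy metabolism named by the study stand next to PK in the use of pyruvate or beside it. Ethanol fermentation starts from the product of PK with pyruvate decarboxylase (PDC, EVM0009327), which splits off CO2, and ends with alcohol dehydrogenase 1 (ADH1, EVM0007108), which uses NADH to make the alcohol, while formate dehydrogenase (FDH, EVM0012176) oxidises formate to CO2. The study chose these on the same libraries as well. All 3 of 3 were called higher than day 0 on each stored day, where 13.6%, 14.6% and 6.66% of all mRNAs tested were called higher in groups B, C and D. The log2 fold changes of PDC were 3.28, 3.13 and 1.91 in groups B, C and D, each ± 0.429 (SE), and those of ADH1 were 3.61, 5.52 and 5.49, each ± 0.686. FDH had 3.16, 3.72 and 3.56, each ± 0.705 (SE). The highest adjusted p of these 9 tests in limma was 0.0102, for PDC on day 24. Without day 0 replicate 2 the changes of ADH1 were 4.51, 6.41 and 6.38, and without day 8 replicate 3 that of FDH on day 8 was 2.42 (limma adjusted p = 0.0111), and all 9 calls held without either library or day 24 replicate 3.

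The later course of PK differed in its calls from that of PDC and ADH1, though the difference itself was not tested. Between days 16 and 24 PDC fell by 1.22 on the log2 scale (limma adjusted p = 0.0482) where PK had 0.07 and ADH1 had -0.03. Between days 8 and 24 ADH1 rose by 1.88 (limma adjusted p = 0.0488) and PDC fell by 1.36 (limma adjusted p = 0.0259), where PK had 0.34. The calls at 0.0482 and 0.0488 lay just under the threshold. None of these calls of PDC and ADH1 between stored days was refitted with a library left out. PK had more FPKM than PDC in every library, by 9.55 to 18.4 times in group A, 3.14 to 5.24 times in B, 4.42 to 6.0 times in C and 8.96 to 19.5 times in D. The values of day 24 covered the whole range of fresh tissue, and those of days 8 and 16 lay below it. Against ADH1, PK stood at 5.61 to 28.9 times on day 0 (18.0 and 28.9 without replicate 2) and at 0.667 to 1.53 times on day 16, so the ADH1 mRNA was near the level of the PK mRNA there. On day 24 it stood at 0.914 to 1.54 times.

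**Figure D4:**
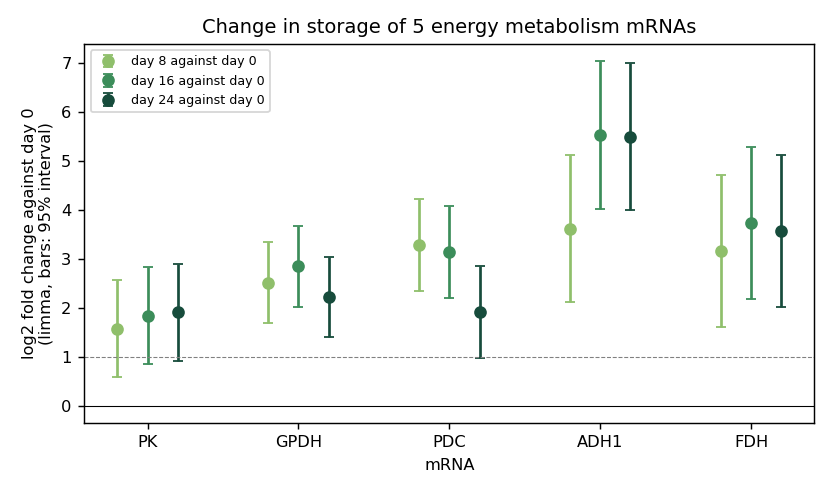
Log2 fold change against day 0 of PK, GPDH, PDC, ADH1 and FDH on days 8, 16 and 24 from limma; points are estimates, bars are 95% intervals and the dashed line marks the fold threshold of 1. PK has the smallest estimate on days 8 and 16 (1.57 and 1.83), PK and PDC share it on day 24 (1.91 each), and ADH1 has the largest on all 3 days.

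Some transcripts had profiles close to those of the 2 genes. Likeness was measured as the root mean square difference between log2(scaled FPKM + 1) profiles, each centred on its own mean over the 12 libraries, among the mRNAs and lncRNAs tested. Nearest to PK were EVM0003414 (0.258), EVM0001057 (0.281) and EVM0001041 (0.282 on the log2 scale), whose mean scaled FPKM of 24.9, 64.7 and 42.2 on day 0 was far below that of PK. EVM0003414 had means of 64.2, 83.9 and 88.8 on days 8, 16 and 24, and EVM0001057 had 148.4, 175.6 and 195.7. Like PK, both were highest on day 24, while EVM0001041 had 115, 142.9 and 109 and was highest on day 16. Nearest to GPDH were EVM0004436 (0.236), EVM0011716 (0.239) and EVM0005691 (0.261). EVM0004436 had means of 86.3, 90.3 and 60.9 on days 8, 16 and 24, and 153 in day 8 replicate 3, so it shared the high value of GPDH in that library. No product name is at hand for these 6 mRNAs. PK and GPDH differed from each other by 0.582, which made GPDH number 527 among the mRNAs nearest to PK and PK number 118 among those nearest to GPDH.

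The lncRNA that the study pairs with PK was the one with the nearest profile. XLOC_000222 differed from PK by 0.287 and was first of 1002 lncRNAs, followed by XLOC_004491 (0.362). Since the study chose its pairs by correlation over these same libraries, this is not independent of that choice. The scaled FPKM of XLOC_000222 in replicates 1, 2 and 3 was 15.1, 27.2 and 23.9 for group A, 55.2, 48.6 and 56.5 for B, 81.8, 49.0 and 90.9 for C, and 73.4, 58.6 and 52.4 for D. Like PK, it was lowest in replicate 2 on days 8 and 16, though PK on day 8 hardly differed between replicates 2 and 3 (2931 and 2939). On day 24 it was lowest in replicate 3, where PK was highest. The highest replicate of XLOC_000222 differed from that of PK on days 8, 16 and 24. All its stored libraries lay above all fresh ones. Its order of 1 among the lncRNAs held without day 0 replicate 2, day 8 replicate 3 or day 24 replicate 3. It rose by 1.27, 1.69 and 1.46 on days 8, 16 and 24 on the log2 scale (SE 0.307 each), with adjusted p of 0.00463, 0.00115 and 0.0109 from limma, where 16.9%, 16.8% and 5.59% of the 1002 lncRNAs tested were called higher.

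The 6 lncRNAs paired with GPDH were less close to it by the likeness used here. The study paired by correlation, which does not count the size of a change, while this likeness does. XLOC_002379, XLOC_007904, XLOC_002704, XLOC_006022, XLOC_007565 and XLOC_010685 were number 7, 12, 20, 22, 29 and 42 of 1002 in likeness, at 0.517 to 0.734. Nearest were XLOC_009326 (0.423) and XLOC_010819 (0.462). All 6 paired lncRNAs were called higher on days 8 and 16 and 3 of them on day 24, where 16.9%, 16.8% and 5.59% of all lncRNAs tested were called higher, and their medians were 2.45, 2.30 and 1.53 on the log2 scale. The study paired lncRNAs that it had called in storage on these libraries, so nothing is read from these counts. The medians over all lncRNAs tested were -0.40, -0.33 and -0.08. All 6 had the highest value of the 12 libraries in day 8 replicate 3, the library in which GPDH itself was highest, against 9.28% of all lncRNAs tested. Since the pairs were chosen by correlation over these same libraries, this shared peak is not independent of that choice, and nothing is read from it. The most abundant of them, XLOC_007565, had 5004, 2812.5 and 26189 scaled FPKM in the replicates of day 8. Without that library the median of the 6 on day 8 was 1.90, the number called was 6 on each stored day, and their order in likeness to GPDH ran from 13 to 70 of 1002. The library kit keeps strand, but the sources used here do not say whether StringTie was run with it, so reads of transcripts that overlap on opposite strands may not be separated.

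**Figure D5:**
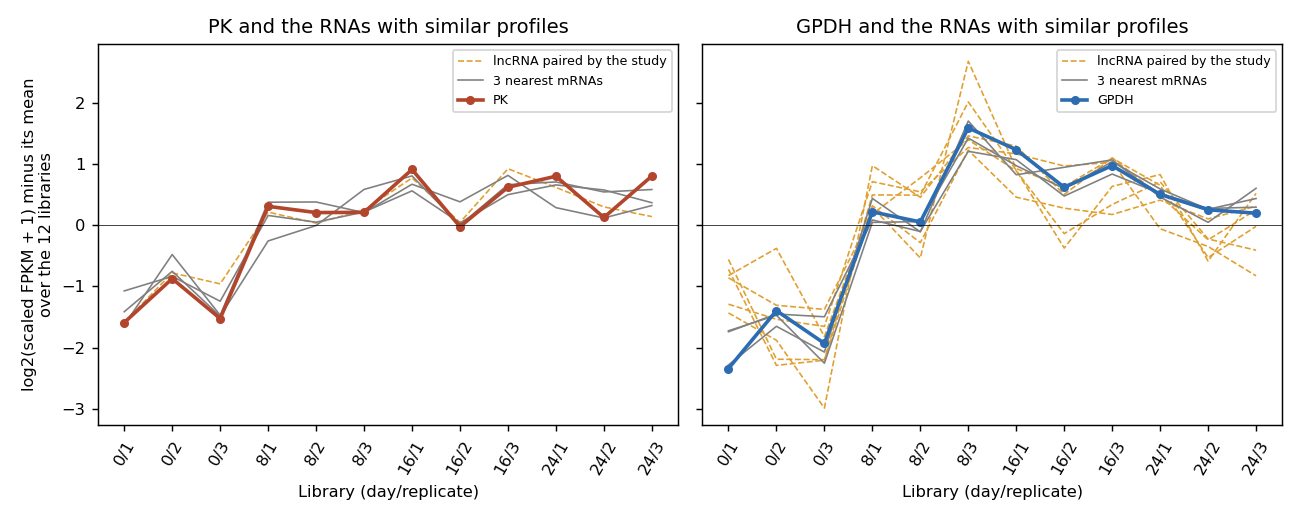
Profiles of PK (left) and GPDH (right) with their 3 nearest mRNAs and the lncRNAs that the study pairs with them, as log2(scaled FPKM + 1) minus its mean over the 12 libraries, by library (day/replicate). PK and XLOC_000222 run together with a difference of 0.287, and GPDH and its 6 paired lncRNAs all have their highest value in day 8 replicate 3. The study chose these pairs by correlation over the same libraries.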

How the data were processed

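Libraries of 12 samples were made with a directional kit after removal of ribosomal RNA. For FPKM, the authors' methods and processing notes name cutadapt 2.7 (trimming), FastQC 0.11.8 (quality), HISAT2 2.1.0 (alignment) and StringTie 1.3.3b (assembly and FPKM). Deposited tables held FPKM of 13103 mRNAs and of 1003 lncRNAs. Since no read counts were used, the authors' DESeq2 test was not repeated and the depth behind a single value is unknown. Columns were matched to day and replicate by name. None of the 14106 identifiers (0 matched) was in the reference table, so product names are those of the study and no sequence is shown.

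Median-of-ratios factors came from mRNAs above 0 in all 12 libraries and were used for lncRNAs too. In R 4.3.3, limma 3.58.1 tested log2(scaled FPKM + 1) by day with its mean-variance trend, and p-values were adjusted by Benjamini-Hochberg within the 10962 mRNAs or 1002 lncRNAs that reached FPKM 1 in 3 or more libraries. The linear change is the linear contrast of the 4 days over 24 days. The log2 ratio of PK to GPDH was tested with an exact permutation of the F ratio. Scripts were tested on simulated data. The genes named are the 2 members, the other energy genes and paired lncRNAs named by the study, and the 3 mRNAs and 2 lncRNAs nearest in profile to each member. Members and lists were chosen with earlier results of these data known. Each library was left out in turn, and other fits changed the pseudocount (0.1), filter (none, or mean FPKM 5), scaling (none, quantile, summed FPKM, lncRNA factors) or libraries (only groups compared), or took replicate number as a block. A fit without the trend, and the other energy genes and paired lncRNAs without the 3 libraries that stand apart, were added after the data were seen. Figures used matplotlib 3.10.9 in Python 3.11.15.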

Additional observations from a re-analysis of the deposited data

How the results depend on the processing

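For the 3 comparisons with day 0 and the linear change, GPDH kept its direction and call in 87 of 87 alternatives and PK in 81 of 87, with its direction kept in the other 6. PK on day 8 had 1.57 with an adjusted p of 0.0687 from limma when only days 0 and 8 were fitted, and its linear change was 1.33 with quantile normalization (limma adjusted p = 0.056). With 1 library left out, PK on day 24 ranged from 1.78 to 2.14 and its linear change from 1.68 to 2.0, and the calls were lost without day 24 replicate 1 or replicate 3. The exact p of the log2 ratio ranged from 0.00338 to 0.15 with 1 library left out and was 0.0851 to 0.302 with a pseudocount of 1, quantile normalization or the block. None of the differences between stored days was called in any alternative, although GPDH on day 24 against day 16 had a limma adjusted p of 0.023 when only these groups were fitted (log2 fold change -0.63). The sign for PK turned in 1 of 22 alternatives for day 16 against day 8, 1 of 22 for day 24 against day 8 and 5 of 22 for day 24 against day 16, and that for GPDH turned in 1 of 22 for day 24 against day 8. The mRNAs called between days 16 and 8 numbered 28 without day 8 replicate 3, and 1 with quantile normalization or without day 0 replicate 1, against 0. The median over all mRNAs moved to -0.18 on day 24 with division by summed FPKM and to -0.16 and -0.15 on days 8 and 16 with factors from the lncRNAs. Without the filter it was -0.16, -0.17 and -0.09 on days 8, 16 and 24. Ranked together with lncRNAs, PK had median ranks of 93, 18, 22 and 33 on days 0, 8, 16 and 24 and GPDH 9701, 4932, 3221 and 4870. The replicate number is no known pairing. Same-numbered libraries of 2 days had correlations of -0.371 to 0.351 between their deviations from the day means, and 4 of 18 exceeded 0.1. Those with different numbers had -0.282 to 0.341, and 8 of 36 exceeded 0.1. A library correlated best with its own number, out of 3, in 11 of 36 cases. With the replicate number as a block, PK had 1.57, 1.83 and 1.91 (limma adjusted p 0.031, 0.0158 and 0.0309), no call of either gene changed, and the exact p of the log2 ratio was 0.118. Depth per gene is unknown, so the precision of the low fresh values of GPDH cannot be given.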
